A study of Mus musculus with 68 samples.

Results

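The change in gene expression from the morula to the inner cell mass (ICM) was measured in mouse embryos made by somatic cell nuclear transfer (SCNT). The comparison rests on 12 RNA-seq libraries of the 68 in the series, all those titled NT-Morula (n = 6) and NT-ICM (n = 6). In both groups the nucleus of a cumulus cell (CC), a somatic cell that surrounds the oocyte, had been placed into an enucleated metaphase oocyte of a B6D2F1 female aged 8 to 10 weeks. Both groups shared the activation step, 6 h in 1 mM SrCl2 with 5 µg/mL cytochalasin B, and neither received an injection or other treatment by its labels. Each library was made from 10 blastomeres by Smart-seq2, a full-length method for small inputs, and read as 150 bp pairs. The ICM was parted from the trophectoderm (TE) of the blastocyst by hand, by the size and place of the cells, so an ICM library is a hand-picked sample and not a sorted population. The labels do not say whether the replicates of a group came from separate embryos or transfer sessions, so the p-values measure the spread between these libraries.

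At the morula stage the blastomeres adhere and polarize, and in the blastocyst that follows the outer cells form the TE, an epithelium that pumps fluid into the blastocoel, while the inner cells form the ICM. The ICM then divides into the epiblast, which holds the pluripotent cells that give the embryo proper, and the primitive endoderm. Nanog, Pou5f1 (which encodes OCT4) and Sox2 are transcription factors of the pluripotent ICM, and Cdx2, Gata3 and the keratins Krt8 and Krt18 mark the TE. Values are TPM as deposited, with the rows of a gene summed, and differences are on the log2(TPM + 1) scale, which understates the change of genes near 0.

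The ICM libraries did not form 1 even group. ICM replicates 1 to 3 held 6177 to 6771 genes at 1 TPM or more and ICM replicates 4 to 6 held 9011 to 10032, against 9165 to 10509 in the morula libraries. The means were 8011 ± 1818 in the ICM and 9649 ± 523.3 in the morula (SD, n = 6 and 6). Their difference of -1638 genes did not pass a two-sided exact permutation test (p = 0.0909). With ICM replicates 4 to 6 alone it was -19.7 (n = 3 and 6, p = 0.976, two-sided exact permutation test). The aligned sequence behind the coverage column was 2.42 to 2.66 gigabases in ICM replicates 1 to 3, 3.65 to 4.22 in ICM replicates 4 to 6 and 2.92 to 4.22 in the morula. The correlation of log2 values across genes was 0.748 to 0.752 among ICM replicates 1 to 3, 0.894 to 0.91 among ICM replicates 4 to 6 and 0.888 to 0.966 among morula libraries. TE replicates 1 to 3 of SCNT blastocysts had 2.15 to 2.58 gigabases aligned and 8401 to 8728 genes at 1 TPM. In ICM replicates 1 and 3, 2 of 12 housekeeping genes were below 1 TPM, so a value of 0 in these libraries can be a failed estimate, and such genes are written as listed at 0. Every leading result was therefore fitted both with all 6 ICM libraries and with ICM replicates 4 to 6 against the 6 morula libraries. In pooled cells, fewer cells of a type and less RNA of a gene per cell cannot be told apart.

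Of the markers that name the ICM, Nanog was higher in every ICM library than in any morula library. Sox2 was close to absent from the morula and present in part of the ICM libraries, and Pou5f1 did not pass the test. Nanog lies on chromosome 6 from 122707489 to 122714633 (mm10). It was found at 3.77, 54.6 and 148 TPM in the morula (lowest, median and highest of 6 libraries, as in the values that follow) and at 154, 249.7 and 274 in the ICM. The rise passed the test with all libraries (log2 fold change 2.42, SE 0.59, adjusted p = 0.0085, limma) and with ICM replicates 4 to 6 (log2 fold change 2.48, adjusted p = 0.0352). Sox2 was listed at 0 in 5 morula libraries and at 0.0318 TPM in the other, and it was at 0, 1.03, 0, 2.13, 2.38 and 4.01 TPM in ICM replicates 1 to 6. All values were low and ICM replicates 1 and 3 were listed at 0. Its mean was below the minimum for the test. Pou5f1 held 55.7, 70 and 351 TPM in the morula and 6.38, 57.3 and 109 in the ICM (log2 fold change -0.98, SE 0.61, adjusted p = 0.29, limma). With ICM replicates 4 to 6 the log2 fold change was -0.06 (adjusted p = 0.947, limma). Pou5f1 was at 6.38, 30.5 and 56.3 TPM in ICM replicates 1 to 3 and at 109, 58.3 and 93.9 in replicates 4 to 6. The groups overlapped, with the lowest value in ICM replicate 1 and the highest in morula replicate 2.

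Transcripts of the TE were present in the ICM libraries and part of them were higher there than in the morula. Krt8 was at 55.3, 231 and 457 TPM in the morula, 1061, 1958 and 4320.2 in the ICM and 1455, 3845 and 6849 in the 6 TE libraries of SCNT blastocysts. Krt18 was at 62, 522 and 908 TPM in the morula, 679, 2258 and 3692 in the ICM and 3309, 5458 and 8221 in the TE, and ICM replicate 6 lay inside the morula range. Both rose from the morula to the ICM (log2 fold change 3.38, SE 0.46, adjusted p = 0.000104 and log2 fold change 2.45, SE 0.56, adjusted p = 0.00595, limma). Gata3 ranged over 51 to 186 TPM in the morula and 72.7 to 608 in the ICM. Cdx2 was listed at 0 in ICM replicates 1, 2 and 4 and was at 5.32, 8.9 and 5.84 TPM in replicates 3, 5 and 6. Neither passed the test (log2 fold change 0.98, SE 0.47, adjusted p = 0.163 and log2 fold change -0.69, SE 0.75, adjusted p = 0.575, limma). The 26 genes of the trophectoderm list together held 1112 to 2560 TPM in the morula libraries, 11440, 4709, 8663, 13270, 17090 and 4622 TPM in ICM replicates 1 to 6 and 14540 to 31690 in the TE libraries. ICM replicates 2 and 6 had the lowest of these sums and replicate 5 the highest, and all were above the morula. The part of this TE transcript level in the results below was not tested. Of the 6 defining markers of CCs, Cyp19a1, Fshr and Ptx3 were listed at 0 in all 12 libraries, and Inhba, Foxl2 and Tnfaip6 did not exceed 0.162 TPM in any ICM library. In the morula Foxl2 reached 0.419 and Tnfaip6 2.17 TPM. In the 3 CC libraries Tnfaip6 was at 794 TPM or more, Inhba at 89.2 or more and Ptx3 at 69.4 or more. The lowest CC values of Cyp19a1, Foxl2 and Fshr were only 2.06, 1.42 and 0.44 TPM, so low values of these genes say little. The 18 genes of the cumulus list summed to 10.06 to 27.1 TPM in the morula and 4.77 to 25.97 in the ICM. Of the 3 that were tested none rose or fell by limma, with 1 higher and 0 lower at an unadjusted p under 0.05. The plot of 12 lineage markers shows these levels library by library.

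**Figure D1:**
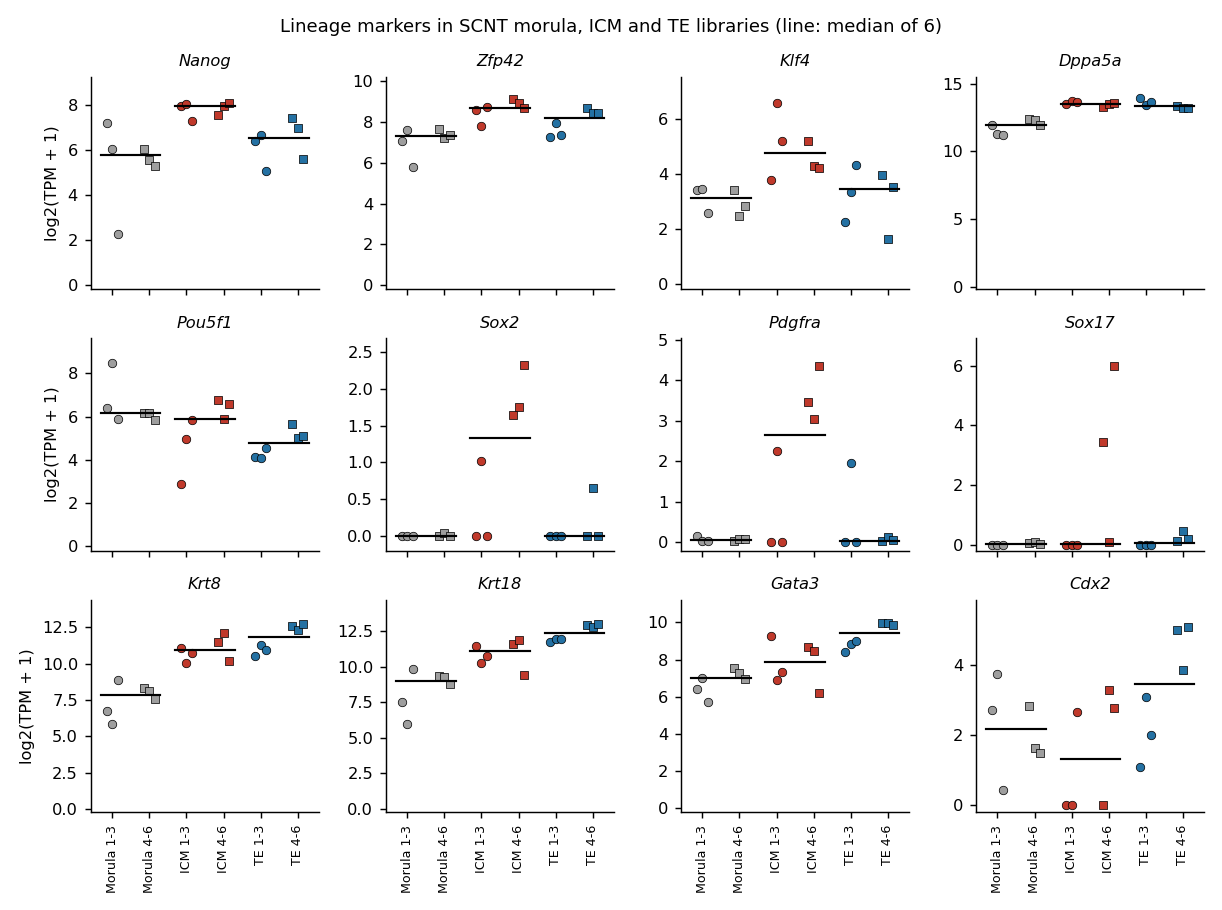
Levels of 12 lineage markers in SCNT morula, ICM and TE libraries, as log2(TPM + 1) on the vertical axis, with circles for replicates 1 to 3, squares for replicates 4 to 6 and a line at the median of the 6 libraries of each group. Nanog, Zfp42, Klf4 and Krt8 have no ICM library at or below a morula library, while Pou5f1 overlaps and Sox17 is above 1 TPM only in ICM replicates 4 and 6.

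Across 10403 genes with a mean of at least 1 TPM, 697 were higher in the ICM (6.7% of the genes tested) and 1049 were lower (10.1%). A call needed an adjusted p under 0.05 and 2-fold or more (limma on log2(TPM + 1), Benjamini-Hochberg adjustment). With ICM replicates 4 to 6 in place of all 6 the split turned round, with 1530 genes higher (14.7%) and 794 lower (7.63%). Quantile normalization gave 871 higher and 987 lower with all libraries, and 1154 higher and 1125 lower with ICM replicates 4 to 6, where the share of calls that were higher went from 65.8% to 50.6%. The number of genes in each direction therefore depended on the ICM libraries used and on scaling. No gene was called in opposite directions by the fits with all 6 and with 3 ICM libraries, which share samples. In both fits 592 genes were higher (5.69%) and 630 lower (6.06%). Among the 1049 falls, 419 were not called lower with ICM replicates 4 to 6, and 464 were below 1 TPM in each of ICM replicates 1 to 3, against 193 in each of ICM replicates 4 to 6. The median log2 fold change of all genes tested was -0.22 with all ICM libraries, 0.18 with ICM replicates 4 to 6 and -0.76 within replicates 1 to 3 of both groups. Quantile normalization moved the first of these medians to -0.01, a shift of more than 0.1, so the medians of gene lists are given beside that of all genes. Likewise the counts of a list are given beside the background, the percentage of all genes tested that were called in that direction by the same fit.

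**Figure D2:**
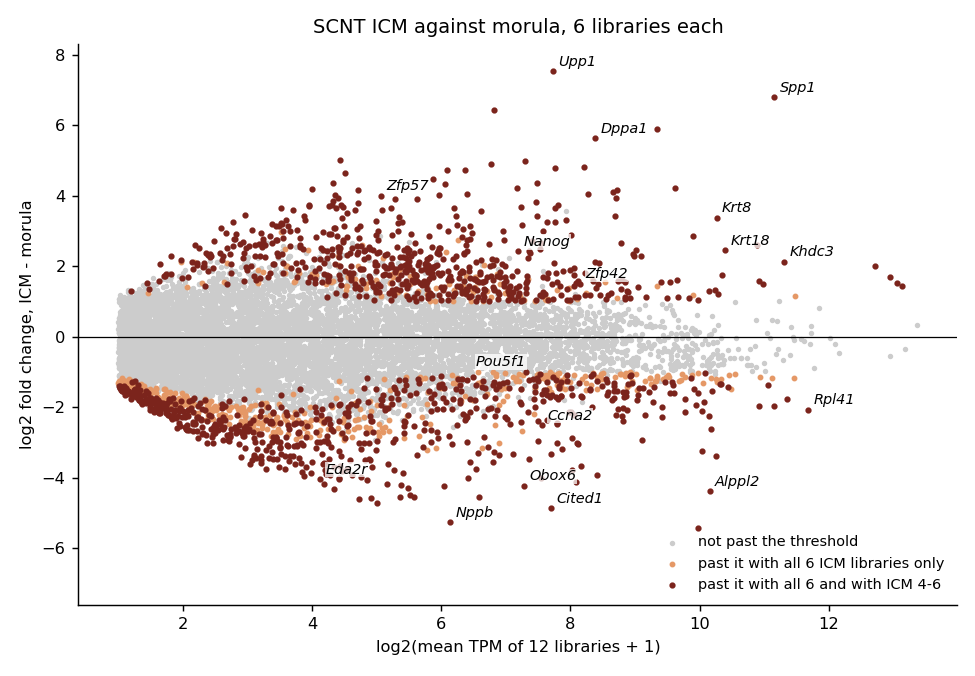
Log2 fold change from SCNT morula to ICM (6 libraries each, vertical axis) against the log2 of the mean TPM of the 12 libraries plus 1 (horizontal axis), 1 point per gene tested. Dark points passed the test with all 6 ICM libraries and with ICM replicates 4 to 6 (592 higher and 630 lower), and light orange points passed with all 6 only.

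No overlap between the 6 morula and 6 ICM libraries was seen for 434 genes with higher ICM values (4.17% of the genes tested) and 709 with lower ICM values (6.82%). The 10 largest rises and 10 largest falls were taken from such genes, with a mean of at least 5 TPM and a call in both fits, so that their lack of overlap was set by the choice. The largest rise was that of Upp1 (mm10, chromosome 11 from 9118008 to 9136170). It encodes uridine phosphorylase, an enzyme of pyrimidine salvage. Upp1 was at 0, 0.861 and 3.56 TPM in the morula and 192, 336 and 955 in the ICM (log2 fold change 7.52, SE 0.51, adjusted p = 2.27e-07, limma). Spp1 (chromosome 5 from 104435111 to 104441053), which encodes the secreted matrix protein osteopontin, went from 23, 36.3 and 60.9 TPM to 2816, 4359 and 6417 (log2 fold change 6.79, SE 0.25, adjusted p = 5.42e-11, limma). The other 8 largest rises were those of Gjb5 (a connexin of gap junctions), Ildr1 (a protein of tricellular junctions), Enpep (a membrane aminopeptidase), Tspan8 (a tetraspanin), Anxa6 (an annexin), Lgals1, Dppa1 and Gbas. Lgals1, which encodes galectin-1, was at 0.865, 12.3 and 20.4 TPM in the morula and 171, 235 and 666 in the ICM. Gjb5 was at 0.171, 1.78 and 2.25 TPM and 84.6, 226 and 385. The log2 fold changes of these 8 genes lay between 4.71 and 6.42.

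The 10 largest falls, with predicted genes left out, were by the choice those of genes found in all 6 morula libraries, since each had to exceed every ICM library. Nppb (chromosome 4 from 147985788 to 147987205) encodes brain natriuretic peptide. Its level was 35.6, 115 and 236 TPM in the morula and 0.616, 1.37 and 11.6 in the ICM (log2 fold change -5.26, SE 0.59, adjusted p = 2.32e-05, limma). Cited1, a transcriptional coactivator that binds CBP and p300, fell from 174, 401 and 638 to 2.26, 11.4 and 27.9 TPM (log2 fold change -4.87, SE 0.49, adjusted p = 1.07e-05, limma). The most abundant of the 10 was Alppl2, an alkaline phosphatase of early embryos, at 1281, 1475 and 5697 TPM in the morula and 23.5, 135 and 160.3 in the ICM. The other 7 were Plk5 (a polo-like kinase), Prl3b1 (a placental lactogen), Stmn3 (a stathmin, which destabilizes microtubules), Pla2g7 (which inactivates platelet-activating factor), Xkr9, Bex1 and Tmigd1, with log2 fold changes between -4.73 and -4.29. In ICM replicate 3 Pla2g7 was at 36 TPM against 0.883, 5.7 and 0.474 in replicates 4 to 6.

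**Figure D3:**
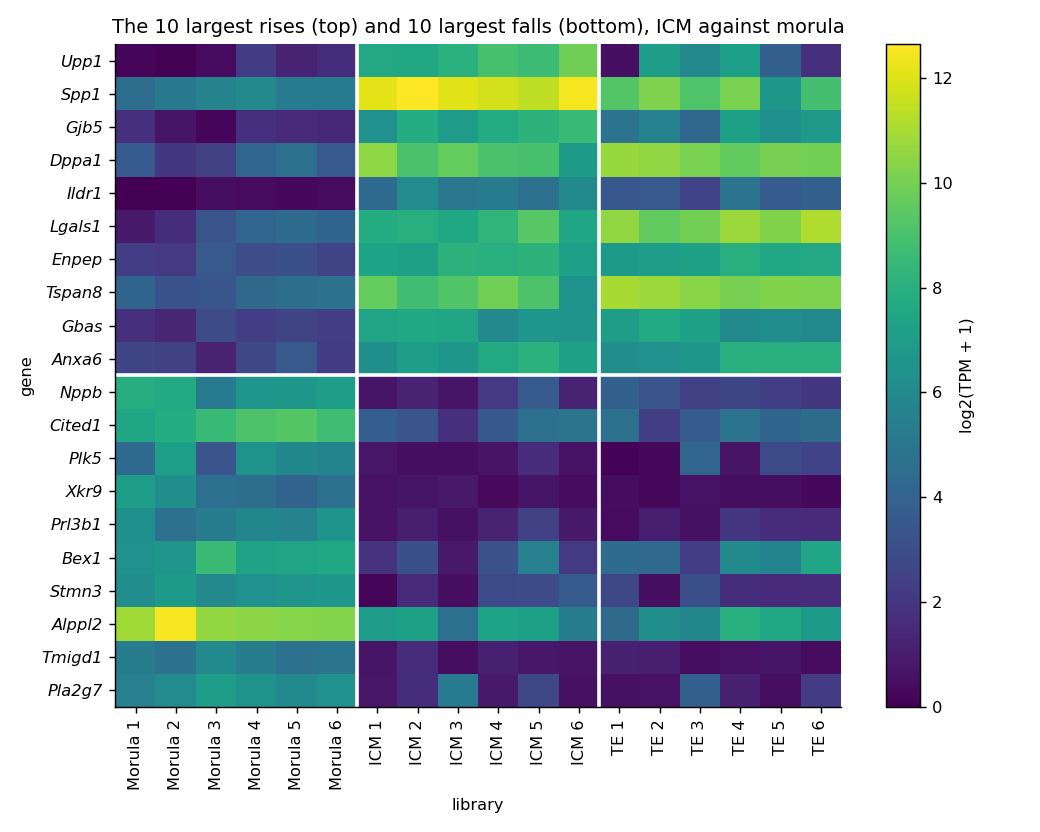
Levels of the 10 genes with the largest rise (top) and the 10 with the largest fall (bottom) from SCNT morula to ICM, coloured by log2(TPM + 1), in 6 morula, 6 ICM and 6 TE libraries. The genes were chosen for their change between morula and ICM, and the TE columns, which the choice did not use, resemble the ICM columns for most of them but are lower for Upp1 and Spp1 and higher for Lgals1.

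The promoters of the largest rise and fall and of the 2 keratins are given because these 4 genes carry the main contrasts above, and because Krt8 and Krt18 are neighbours on chromosome 15 and rose together. The sequences are those of RefSeq (GRCm38.p6, from 250 bases before to 50 bases after the start of the gene in RefSeq), 5′ to 3′ on the strand of the gene. For Nppb this start lies downstream of the gene start given above (147985788). Capitals mark matches, on either strand, to 6 short motifs: the octamer ATGCAAAT, the E-box CACGTG, the GATA motif AGATAA, the TEAD motif GGAATG, the KLF motif GGGNGTG and the AP-2 motif GCCNNNGGC. Matches of different motifs may overlap. Upp1 lies on the + strand at chr11:9117758-9118057, Nppb on the + strand at chr4:147985650-147985949, Krt8 on the - strand at chr15:102004293-102004592 and Krt18 on the + strand at chr15:102027966-102028265.
Upp1: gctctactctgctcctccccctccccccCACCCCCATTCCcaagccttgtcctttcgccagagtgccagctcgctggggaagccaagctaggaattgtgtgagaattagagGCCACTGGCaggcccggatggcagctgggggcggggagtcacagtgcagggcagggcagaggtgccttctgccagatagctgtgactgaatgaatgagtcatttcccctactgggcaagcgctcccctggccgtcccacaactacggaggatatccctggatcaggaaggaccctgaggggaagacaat
Nppb: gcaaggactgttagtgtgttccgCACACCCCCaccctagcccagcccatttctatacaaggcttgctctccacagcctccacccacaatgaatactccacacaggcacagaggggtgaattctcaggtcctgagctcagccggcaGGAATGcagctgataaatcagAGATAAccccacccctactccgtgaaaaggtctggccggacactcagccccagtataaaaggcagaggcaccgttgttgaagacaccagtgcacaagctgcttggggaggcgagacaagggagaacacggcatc
Krt8: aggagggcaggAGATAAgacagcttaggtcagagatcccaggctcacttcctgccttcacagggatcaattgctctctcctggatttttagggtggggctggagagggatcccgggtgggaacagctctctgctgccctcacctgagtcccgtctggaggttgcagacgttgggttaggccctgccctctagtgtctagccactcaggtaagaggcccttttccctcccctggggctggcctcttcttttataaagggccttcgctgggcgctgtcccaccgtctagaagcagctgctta
Krt18: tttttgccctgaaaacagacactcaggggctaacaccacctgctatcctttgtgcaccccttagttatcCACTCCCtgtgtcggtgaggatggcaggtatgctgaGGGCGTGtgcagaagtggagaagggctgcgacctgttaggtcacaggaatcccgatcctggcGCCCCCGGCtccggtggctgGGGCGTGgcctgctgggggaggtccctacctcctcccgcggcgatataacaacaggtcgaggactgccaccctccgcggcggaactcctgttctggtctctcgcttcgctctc
The KLF motif was found in 29% of all 27025 promoters of this length, the AP-2 motif in 16.5%, the TEAD motif in 14.6%, the GATA motif in 11.4%, the E-box in 7.24% and the octamer in 1.75%. Krt18 held 3 matches to the KLF motif and 1 to the AP-2 motif, and Krt8 held 1 to the GATA motif, so no motif of the 6 was found in both keratin promoters. Upp1 held 1 match each to the TEAD, KLF and AP-2 motifs, and Nppb held 1 to the GATA, 1 to the TEAD and 2 to the KLF motif. By symbol, 7790 of the 10403 tested genes had a promoter in the table, and the share of motifs was not compared between the genes that rose and fell.

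The pluripotency genes rose more often than they fell. Of 30 genes on the list 26 were tested, of which 9 rose, 1 fell and 16 did not pass with all ICM libraries (background 6.7% higher and 10.1% lower), and 11 rose and 2 fell with ICM replicates 4 to 6 (background 14.7% and 7.63%). The median log2 fold change of the list was 0.76 (all genes -0.22), and 1.06 with ICM replicates 4 to 6 (all genes 0.18). Within replicates 1 to 3 of both groups it was 0.01 (all genes -0.76), with 3 rises and 2 falls (background 3.03% and 14.4%). The factors of the naive state that rose included Klf4, at 4.49, 7.88 and 9.89 TPM in the morula and 12.8, 27 and 95.3 in the ICM (log2 fold change 1.86, SE 0.51, adjusted p = 0.0168, limma). Zfp42 (Rex1), a zinc-finger gene of pluripotent cells, rose from 54.6, 157 and 204 to 219, 419 and 552 TPM (log2 fold change 1.51, SE 0.32, adjusted p = 0.00317, limma). Stat3, which relays LIF signals in the nucleus, was at 2.59, 5.23 and 11.9 TPM in the morula and 3.81, 54.3 and 98.6 in the ICM (log2 fold change 2.75, SE 0.66, adjusted p = 0.00787, limma). The low value came from ICM replicate 3. Dppa5a, an abundant gene of both stages that has near-identical copies in the genome, went from 2388, 3955 and 5313 to 9897, 11845 and 13309 TPM. Otx2, a homeobox gene of the later epiblast, was at 0.127 TPM at the median in the morula. It was at 6.16, 0, 6.59, 13.3, 15.7 and 36.3 TPM in ICM replicates 1 to 6 (log2 fold change 2.52, SE 0.75, adjusted p = 0.0259, limma). Tet1, Tfcp2l1 and Sall4 were the other members that rose, with log2 fold changes of 2.05, 1.18 and 1.34, and the last pair did not pass with ICM replicates 4 to 6.

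A second group of pluripotency genes passed with ICM replicates 4 to 6 and not with all ICM libraries. Tdgf1, the Nodal coreceptor Cripto, was at 6.87, 23.9 and 49.3 TPM in the morula. In ICM replicates 1 to 6 it was at 455, 153, 0.469, 211, 216 and 373 TPM, so that a single library lay below the morula range. It did not pass with all libraries (log2 fold change 2.23, SE 1.08, adjusted p = 0.167, limma) and passed with ICM replicates 4 to 6 (log2 fold change 3.46, adjusted p = 0.000719). Utf1, a chromatin factor of pluripotent cells, was at 34.7, 97.4 and 196 TPM in the morula, at 143, 112 and 145 in ICM replicates 1 to 3 and at 332, 307 and 581 in replicates 4 to 6. It missed the threshold with all libraries (log2 fold change 1.44, SE 0.51, adjusted p = 0.0604, limma) and passed with ICM replicates 4 to 6 (log2 fold change 2.21, adjusted p = 0.0134). Within replicates 1 to 3 of both groups Utf1 also passed (log2 fold change 1.70, adjusted p = 0.0274, limma). Gdf3 and Prdm14 likewise passed with ICM replicates 4 to 6, with log2 fold changes of 2.72 and 2.31. The exception on the list was Nr5a2, an orphan nuclear receptor, which fell from 34.5, 42 and 60.2 to 3.18, 13.7 and 18.6 TPM (log2 fold change -1.86, SE 0.43, adjusted p = 0.00615, limma). Every ICM library was below every morula library. Dppa3 (Stella), a maternal protein that guards DNA methylation, was abundant in both groups, at 7619.9, 9800.2 and 14526 TPM in the morula and 6854, 7932 and 10097 in the ICM (log2 fold change -0.34, SE 0.14, adjusted p = 0.106, limma). Fgf4, the ligand that the epiblast sends to the primitive endoderm, was low in both groups, at 0.71, 0.993 and 3.43 TPM and 0.077, 1.24 and 11.5. Esrrb was at most 1.19 TPM in any of the 12 libraries.

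Primitive endoderm genes differed between the ICM libraries. Of 26 genes on the list 17 were tested, of which 3 rose and 2 fell with all ICM libraries (background 6.7% and 10.1%), and 5 rose and 1 fell with ICM replicates 4 to 6 (background 14.7% and 7.63%). The median went from -0.03 to 0.69 between these fits (all genes -0.22 and 0.18). Pdgfra, the receptor that marks primitive endoderm precursors, did not exceed 0.127 TPM in any morula library. It was at 0, 3.81, 0.00427, 9.99, 7.21 and 19.5 TPM in ICM replicates 1 to 6 (log2 fold change 2.11, SE 0.67, adjusted p = 0.0376, limma). Sox17, a factor of the committed primitive endoderm, was below 0.1 TPM in the morula libraries and in 4 ICM libraries. ICM replicates 4 and 6 held 9.85 and 62.3 TPM (log2 fold change 1.55, SE 0.87, adjusted p = 0.24, limma). The 2 ICM libraries with Sox17 also held the highest Pdgfra values, 9.99 and 19.5 TPM. Gata6, an early factor of the lineage that the morula also expresses, was at 14.8, 21.7 and 36.5 TPM in the morula and 1.34, 20.9 and 33.3 in the ICM (log2 fold change -0.81, SE 0.62, adjusted p = 0.403, limma). Gata4 was at or below 0.247 TPM in the ICM. Fgfr1, through which FGF4 acts on the ICM, rose from 0.0859, 0.571 and 3.39 to 0.0189, 11.2 and 37 TPM (log2 fold change 2.28, SE 0.75, adjusted p = 0.044, limma), with ICM replicate 1 the low library. Fgfr2 was at 4.76, 7.25 and 13.9 and 0.08, 7.65 and 12.9 TPM (log2 fold change -0.48, SE 0.64, adjusted p = 0.652, limma). Sparc, a matrix glycoprotein made in quantity by parietal endoderm, rose in all 6 ICM libraries (3.27, 11.2 and 22.7 to 33.8, 72.1 and 168 TPM; log2 fold change 2.66, SE 0.53, adjusted p = 0.00223, limma). The members that fell were the endocytic receptor gene Lrp2 (log2 fold change -2.08, SE 0.61, adjusted p = 0.0248, limma) and the basement membrane collagen gene Col4a2 (log2 fold change -1.60, SE 0.50, adjusted p = 0.0348, limma). Col4a2 was not called with ICM replicates 4 to 6.

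The trophectoderm list rose in 8 of its 24 tested members, next to 9 of 26 on the pluripotency list, and fell in 1 (background 6.7% and 10.1%). The counts were 11 and 1 with ICM replicates 4 to 6 (background 14.7% and 7.63%), with medians of 1.08 and 1.53 (all genes -0.22 and 0.18). Beside Krt8 and Krt18 the risers were Dppa1, Tspan8, Id2, Eomes, Plac1 and Fabp3. Id2, an inhibitor of basic helix-loop-helix factors that is high in outer cells, was at 2.11, 21.3 and 47 TPM in the morula, 162, 350.4 and 532 in the ICM and 341, 892 and 1089 in the TE. It rose from morula to ICM (log2 fold change 4.36, SE 0.64, adjusted p = 0.00021, limma). Eomes, a T-box factor of the trophoblast, held 0.485, 1.33 and 2.2 TPM in the morula, 9.6, 15.2 and 41.3 in the ICM and 20, 24.1 and 38.3 in the TE. Dppa1 held 3.18, 10.7 and 23.6 TPM in the morula, 116, 520.1 and 1443 in the ICM and 774, 1074 and 1643 in the TE. For all 3 genes every ICM library was above every morula library. The lowest ICM value of Dppa1, Id2, Tspan8, Krt18 and Gata3 was in ICM replicate 6. Other members had theirs elsewhere, Krt8 and Fabp3 in ICM replicate 2, Plac1 in ICM replicate 3 and Eomes in ICM replicate 5. Tead4, the TEAD factor that acts above Cdx2, fell from 32.7, 38.7 and 87.3 to 1.29, 17.8 and 21.7 TPM (log2 fold change -1.75, SE 0.55, adjusted p = 0.034, limma).

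Genes of cell junctions and of the blastocoel also rose more often than they fell. Of 27 genes 26 were tested, with 10 rises and 2 falls with all ICM libraries (background 6.7% and 10.1%) and 12 and 2 with ICM replicates 4 to 6 (background 14.7% and 7.63%). The medians were 0.81 and 1.14, next to -0.22 and 0.18 for all genes. The TE transcript sums given above were higher in the same libraries, and their part in these rises was not tested. The desmosomal cadherin genes led them. Dsc2 was at 0.107, 0.27 and 1.61 TPM in the morula and 6.2, 27.4 and 85 in the ICM (log2 fold change 4.35, SE 0.61, adjusted p = 0.000157, limma). Dsg2 was at 0.134, 0.758 and 0.885 and 0.829, 13.1 and 43.1 TPM (log2 fold change 3.14, SE 0.68, adjusted p = 0.00394, limma), with ICM replicate 3 inside the morula range. Ezr, which links actin to the apical membrane, rose from 2.99, 3.91 and 15 to 19.5, 32.3 and 97.9 TPM (log2 fold change 2.58, SE 0.52, adjusted p = 0.00243, limma). Others that rose were the tight junction genes Ocln and Cgn, the polarity genes Pard3 and Prkci, the adherens junction gene Ctnna1 and the sodium pump subunit Atp1b1, with log2 fold changes between 1.49 and 2.39. Atp1b1 was not called with ICM replicates 4 to 6 (log2 fold change 1.12, adjusted p = 0.0536, limma). Against this run Pkp2, a plakophilin of desmosomes, fell from 11.6, 14.3 and 33.3 to 0.126, 1.32 and 5.1 TPM (log2 fold change -2.85, SE 0.57, adjusted p = 0.00226, limma), with no ICM library inside the morula range. Aqp9, a channel for water and glycerol, fell from 43.9, 66 and 132 to 0.507, 18.7 and 50.6 TPM (log2 fold change -2.53, SE 0.73, adjusted p = 0.023, limma).

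On the Hippo and signalling lists members were called in both directions. On the Hippo list 17 of 21 genes were tested, with 1 rise (Stk3) and 2 falls (Tead4 and Nf2) against a background of 6.7% and 10.1%, and with 2 and 3 when ICM replicates 4 to 6 were used (background 14.7% and 7.63%). Stk3, the kinase MST2, rose from 0.348, 0.792 and 3.04 to 3.42, 23.6 and 50.3 TPM (log2 fold change 3.42, SE 0.61, adjusted p = 0.00101, limma). Nf2, the upstream regulator merlin, went from 5.76, 8.96 and 21.1 to 0.293, 2.42 and 4.86 TPM (log2 fold change -1.77, SE 0.53, adjusted p = 0.0292, limma). On the signalling list 19 of 32 genes were tested, with 4 rises and 4 falls with all ICM libraries and 4 and 3 with ICM replicates 4 to 6 (the same backgrounds). Quantile normalization gave 5 rises and 2 falls in the former and 4 of each in the latter. Both ERK phosphatases on it changed, and in opposite directions. Dusp6 rose from 0.954, 2.56 and 4.35 to 13.7, 26.6 and 73.8 TPM (log2 fold change 3.09, SE 0.55, adjusted p = 0.000973, limma). Dusp4 fell from 12.4, 22.8 and 40.4 to 0, 0.538 and 9.78 TPM (log2 fold change -3.44, SE 0.61, adjusted p = 0.00101, limma). Id2 rose and Id1 fell. Socs3, a feedback inhibitor of STAT3 signalling, was at 2.75, 7.57 and 52.5 TPM in the morula and 0.0889, 0.32 and 5.25 in the ICM (log2 fold change -2.64, SE 0.66, adjusted p = 0.01, limma). Its fall did not pass with ICM replicates 4 to 6 (log2 fold change -2.25, adjusted p = 0.0511). Fgfr1 and Spry2 were the other rises and Fgfr3 the other fall, and Spry2 was not called with ICM replicates 4 to 6.

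Genes of DNA methylation and its removal rose more often than they fell. Of 13 genes 11 were tested, with 4 rises and 1 fall with all ICM libraries (background 6.7% and 10.1%). There were 5 rises and 0 falls by limma with ICM replicates 4 to 6 (1 lower at an unadjusted p under 0.05; background 14.7% and 7.63%). The medians were 1.40 and 1.06 (all genes -0.22 and 0.18). Zfp57, the KRAB zinc-finger factor that keeps methylation at imprinted regions, rose from 1.28, 2.38 and 4.14 to 18.2, 70.7 and 107 TPM (log2 fold change 4.00, SE 0.54, adjusted p = 0.000104, limma). The lowest ICM library was above the highest morula library. Tet1, a methylcytosine dioxygenase, rose from 0.609, 1.29 and 2.44 to 4.09, 9.09 and 19.2 TPM (log2 fold change 2.05, SE 0.48, adjusted p = 0.00711, limma). Tet2 and the glycosylase gene Tdg rose with log2 fold changes of 1.81 and 2.38, Tet2 not with ICM replicates 4 to 6. Uhrf1, which brings DNMT1 to replicating DNA, passed only with ICM replicates 4 to 6 (1.22, 2.79 and 5.24 TPM in the morula, 19, 25.1 and 22.5 in these; log2 fold change 2.64, adjusted p = 0.00118, limma). Dnmt3l, the cofactor of the de novo methyltransferases, was at 50, 78.1 and 121 TPM in the morula, at 14.7, 10.4 and 4.6 in ICM replicates 1 to 3 and at 50.9, 61.5 and 23 in replicates 4 to 6. Its fall was called with all ICM libraries (log2 fold change -1.92, SE 0.53, adjusted p = 0.0175, limma) and not with ICM replicates 4 to 6 (log2 fold change -0.87, adjusted p = 0.0898). Dnmt3b was at 3.99, 9.44 and 22.8 and 8.44, 17 and 21.1 TPM (log2 fold change 0.64, SE 0.48, adjusted p = 0.387, limma).

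The writers, readers and erasers of H3K9 methylation, the chromatin mark that the series addresses, changed in few members. Of 20 genes 17 were tested and 2 rose and none fell by limma with all ICM libraries (2 higher and 1 lower at an unadjusted p under 0.05), where 6.7% and 10.1% of all genes were higher and lower. The median was 0.41 (all genes -0.22), and 0.62 with ICM replicates 4 to 6 (all genes 0.18), where again 2 rose (background 14.7%). Jmjd1c, a member of the KDM3 demethylase family, rose from 0.0482, 0.702 and 3.13 to 3.8, 6.67 and 10.2 TPM (log2 fold change 2.01, SE 0.50, adjusted p = 0.0101, limma). Cbx3, the heterochromatin protein HP1 gamma, was at 202, 318 and 423 TPM in the morula, at 1362, 1701 and 1353 in ICM replicates 1 to 3 and at 560.3, 469 and 408 in replicates 4 to 6. Its rise was called with all ICM libraries (log2 fold change 1.43, SE 0.34, adjusted p = 0.00783, limma) and not without the first 3 (log2 fold change 0.62, adjusted p = 0.0703). In the MYC and MAX list 9 of 13 genes were tested and 1 rose (background 6.7%). It was Mycn, which went from 0, 0.218 and 1.77 to 0.379, 8.14 and 15 TPM (log2 fold change 2.38, SE 0.57, adjusted p = 0.00821, limma), with ICM replicate 2 at 0.379 TPM inside the morula range. Max was at 2.49, 11.5 and 22.9 TPM in the morula and 0.44, 6.69 and 32.1 in the ICM (log2 fold change -0.75, SE 0.70, adjusted p = 0.499, limma). Mcrs1 was at 102, 164 and 218 and 1.11, 110.3 and 185 TPM (log2 fold change -1.37, SE 0.82, adjusted p = 0.272, limma). Neither passed the test with all ICM libraries or with ICM replicates 4 to 6 (log2 fold change -0.84, adjusted p = 0.309 and log2 fold change 0.02, adjusted p = 0.968), and the groups overlapped.

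Among imprinted and X-linked genes 12 of 21 were tested, and 3 rose and none fell by limma with all ICM libraries (3 higher and 4 lower at an unadjusted p under 0.05; background 6.7% and 10.1%). With ICM replicates 4 to 6 there were 3 rises and 2 falls (background 14.7% and 7.63%), which quantile normalization turned to 1 and 3. Slc38a4, an amino acid transporter gene expressed from the paternal allele in placental lineages, was at 16.3, 29.2 and 44.8 TPM in the morula and 211, 274 and 344 in the ICM, with no overlap (log2 fold change 3.18, SE 0.29, adjusted p = 3.9e-06, limma). Sfmbt2, another gene with paternal expression, was at 0.251, 0.551 and 6.53 and 1.82, 7 and 75 TPM (log2 fold change 2.50, SE 0.76, adjusted p = 0.0294, limma). It did not pass with ICM replicates 4 to 6 (log2 fold change 1.32, adjusted p = 0.123). Rlim, the X-linked ubiquitin ligase that promotes X inactivation, rose from 2.38, 6.55 and 26.3 to 21.3, 32.4 and 69 TPM (log2 fold change 2.34, SE 0.54, adjusted p = 0.00631, limma). Xist, the RNA that coats the inactive X chromosome, was at 9.23, 14.3 and 21.8 TPM in the morula, at 7.9, 32.5 and 16 in ICM replicates 1 to 3 and at 4.59, 9.97 and 3.42 in replicates 4 to 6. It did not pass with all libraries (log2 fold change -0.55, SE 0.53, adjusted p = 0.514, limma) and fell in the fit with replicates 4 to 6 (log2 fold change -1.25, adjusted p = 0.0434).

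Few of the cell-cycle genes passed the test. Of 30 genes 29 were tested, and 3 rose and 3 fell in the fit with all ICM libraries, close to the background of 6.7% and 10.1%. These 6 were also called with ICM replicates 4 to 6, where 4 rose and 4 fell (background 14.7% and 7.63%). Ccne1, the cyclin of the G1 to S transition, fell from 174, 367 and 785 to 7.05, 50.1 and 90.7 TPM (log2 fold change -3.18, SE 0.52, adjusted p = 0.000504, limma). Ccna2 fell from 255, 311 and 403 to 27.1, 60.2 and 94.1 TPM (log2 fold change -2.51, SE 0.30, adjusted p = 3.8e-05, limma). Its partner kinase Cdk1 fell from 212, 348 and 418 to 68.3, 90.2 and 153 TPM (log2 fold change -1.72, SE 0.28, adjusted p = 0.000465, limma). In all 3 cases every ICM library was below every morula library. Cdkn1b, the inhibitor p27, rose from 0, 0.48 and 0.764 to 5.09, 7.39 and 15.7 TPM (log2 fold change 2.70, SE 0.44, adjusted p = 0.000528, limma). The other rises were those of Ccnb2 (161, 262 and 301 to 366, 475 and 691 TPM) and Cdk2 (46.6, 56.3 and 92.4 to 82.9, 129.8 and 223 TPM).

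Among targets of p53 and apoptosis genes, the members that passed the test were lower in the ICM. Of 22 genes 20 were tested, with 6 falls (background 10.1%) and no rise by limma with all ICM libraries (0 higher and 9 lower at an unadjusted p under 0.05). With ICM replicates 4 to 6 there were 5 falls (background 7.63%), of which 3 were shared. Quantile normalization left 3 falls with all ICM libraries. The median was -0.68 (all genes -0.22) and -0.58 (all genes 0.18). Eda2r, a receptor induced by p53, fell from 9.5, 24.8 and 76.3 to 0.0105, 0.296 and 3.18 TPM (log2 fold change -4.04, SE 0.60, adjusted p = 0.000248, limma). Cdkn1a, the inhibitor p21, fell from 180.3, 227 and 312 to 14.1, 43.9 and 282 TPM (log2 fold change -2.15, SE 0.53, adjusted p = 0.00983, limma). Sesn2, Trp53inp1 and Bbc3 were not called with ICM replicates 4 to 6, and ICM replicates 5 and 6 held the higher values of Trp53inp1 (3.59, 1.11, 0.871, 0.561, 7.81 and 10.6 TPM in replicates 1 to 6). In morula replicates 1 to 6 Trp53inp1 was at 23.1, 32.7, 63.3, 8.1, 7.81 and 4.82 TPM. Sesn2 was at 9.8, 62.6, 32.8, 2.78, 2.72 and 3.12 TPM there. Within replicates 4 to 6 of both groups 2 of the 20 tested members fell, where 689 of all 10403 genes were lower. Bcl2l11 was called in both fits, with log2 fold changes of -1.82 and -1.88. Genes that respond to handling, such as Fos, Jun and heat shock genes, were measured as a check on the parting of ICM from TE. Of 12 tested members none rose and 1 fell by limma with all ICM libraries (0 higher and 2 lower at an unadjusted p under 0.05; background 6.7% and 10.1%). The member that fell was Gadd45b (8.38, 26.1 and 46.8 to 0.262, 0.596 and 3.87 TPM; log2 fold change -3.69, SE 0.57, adjusted p = 0.000302, limma). The early response gene Ier2 was higher in the fit with ICM replicates 4 to 6 (366, 250.2 and 275 TPM, against 5.75, 17.7 and 43.2 in the morula; log2 fold change 4.02, adjusted p = 0.000478, limma). It was at 0.21, 43 and 115 TPM in replicates 1 to 3.

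Genes of the cleavage stages were called lower in the ICM in a few members. Of 24 such genes 13 were tested, with 4 falls and no rise by limma with all ICM libraries (1 higher and 4 lower at an unadjusted p under 0.05; background 6.7% and 10.1%). Only 2 of these falls were called with ICM replicates 4 to 6 (background 7.63%), and the median was -0.96 in both fits (all genes -0.22 and 0.18). Quantile normalization with all ICM libraries gave 1 rise and 2 falls at a median of -0.34, and within replicates 4 to 6 of both groups the median was 0.00435 with 2 falls. Obox6, an oocyte-specific homeobox gene still present in the morula, fell from 171, 309.7 and 429 to 4.23, 18.8 and 31.7 TPM (log2 fold change -4.23, SE 0.49, adjusted p = 3.26e-05, limma). The other falls were those of Usp17lb, Tdpoz2 and Arg2. Obox6, Usp17lb and Tdpoz2 belong to families of near-identical copies among which reads can be shared, so the value of a single member is uncertain. Of 20 oocyte genes 9 were tested, with 1 rise, Khdc3, and 1 fall, Zp3, which encodes a protein of the zona pellucida (background 6.7% and 10.1%). In the fit with ICM replicates 4 to 6, 3 rose and 1 fell (background 14.7% and 7.63%), and the fall was that of Padi6 (4.65, 19.2 and 30.4 TPM in the morula, 2.95, 2.5 and 0.425 in these; log2 fold change -2.48, adjusted p = 0.0148, limma). Khdc3, a subunit of the subcortical maternal complex, was higher in every ICM library than in any morula library (300.4, 1072 and 1427 to 2924, 3258 and 6542 TPM; log2 fold change 2.13, SE 0.32, adjusted p = 0.000278, limma). It was at 270.2 TPM at the median of the 6 SCNT 8C libraries.

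Ribosomal protein genes fell and genes of the respiratory chain rose in part. Of 83 genes for ribosomal proteins 42 fell and none rose by limma with all ICM libraries (0 higher and 73 lower at an unadjusted p under 0.05), against a background of 10.1% for falls. With ICM replicates 4 to 6, 15 fell and 1 rose (background 7.63% and 14.7%), and within replicates 1 to 3 of both groups 55 fell (background 14.4%). The list median was -1.01, -0.62 and -1.26 in these fits (all genes -0.22, 0.18 and -0.76). With quantile normalization 21 fell with all ICM libraries at a median of -0.68. In that fit 987 of all 10403 genes were lower and their median was -0.01. Summed over the list the morula libraries held 86650 to 112600 TPM and the ICM libraries 41140 to 66670, with no overlap. Rpl41 fell from 2709.8, 5605 and 7229 to 780.1, 1220.3 and 1857 TPM (log2 fold change -2.07, SE 0.24, adjusted p = 3.4e-05, limma), and Rpl39 and Rpl38 fell with log2 fold changes of -2.09 and -1.76. These genes have many processed copies in the genome, and how reads were shared among them is not given in the sources used here.

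Of 81 tested respiratory chain genes 11 rose and 1 fell with all ICM libraries (background 6.7% and 10.1%), and 19 rose and 1 fell with ICM replicates 4 to 6 (background 14.7% and 7.63%). The medians were 0.27 and 0.67 (all genes -0.22 and 0.18). Sdhd, a membrane anchor of succinate dehydrogenase, rose from 74.8, 116 and 196 to 223, 439 and 461 TPM (log2 fold change 1.75, SE 0.26, adjusted p = 0.000269, limma). The complex I subunit gene Ndufs4 rose from 16.8, 25.3 and 40.3 to 59.7, 79.5 and 89.1 TPM (log2 fold change 1.58, SE 0.31, adjusted p = 0.00198, limma). The fall was that of Cox7a1, the muscle-type subunit of complex IV (log2 fold change -1.80, SE 0.54, adjusted p = 0.0281, limma). The median summed length of all annotated exons of a gene was 1770 bases for ribosomal protein and 1737 bases for respiratory chain genes (GENCODE vM21). This sum is not the length of a transcript, and the part of length in these changes was not tested. Over all genes the median log2 fold change was -0.36 in the 2497 genes with the shortest summed exons and -0.01 in the 2496 with the longest, of 9988 matched genes, and 0.04 and 0.24 with ICM replicates 4 to 6. On the glycolysis list 18 of 21 genes were tested, with 2 rises (Tpi1 and Hk2) and 1 fall (Pgam1) against a background of 6.7% and 10.1%. There were 4 rises and 0 falls by limma with ICM replicates 4 to 6 (1 lower at an unadjusted p under 0.05; background 14.7% and 7.63%), and the median went from -0.05 to 0.42 (all genes -0.22 and 0.18). Quantile normalization with all ICM libraries gave 1 rise and 2 falls. Tpi1, triosephosphate isomerase, rose from 48.2, 90.8 and 182 to 195, 377 and 593 TPM (log2 fold change 1.86, SE 0.34, adjusted p = 0.00119, limma). It was the only one of these 3 also called with ICM replicates 4 to 6.

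**Figure D4:**
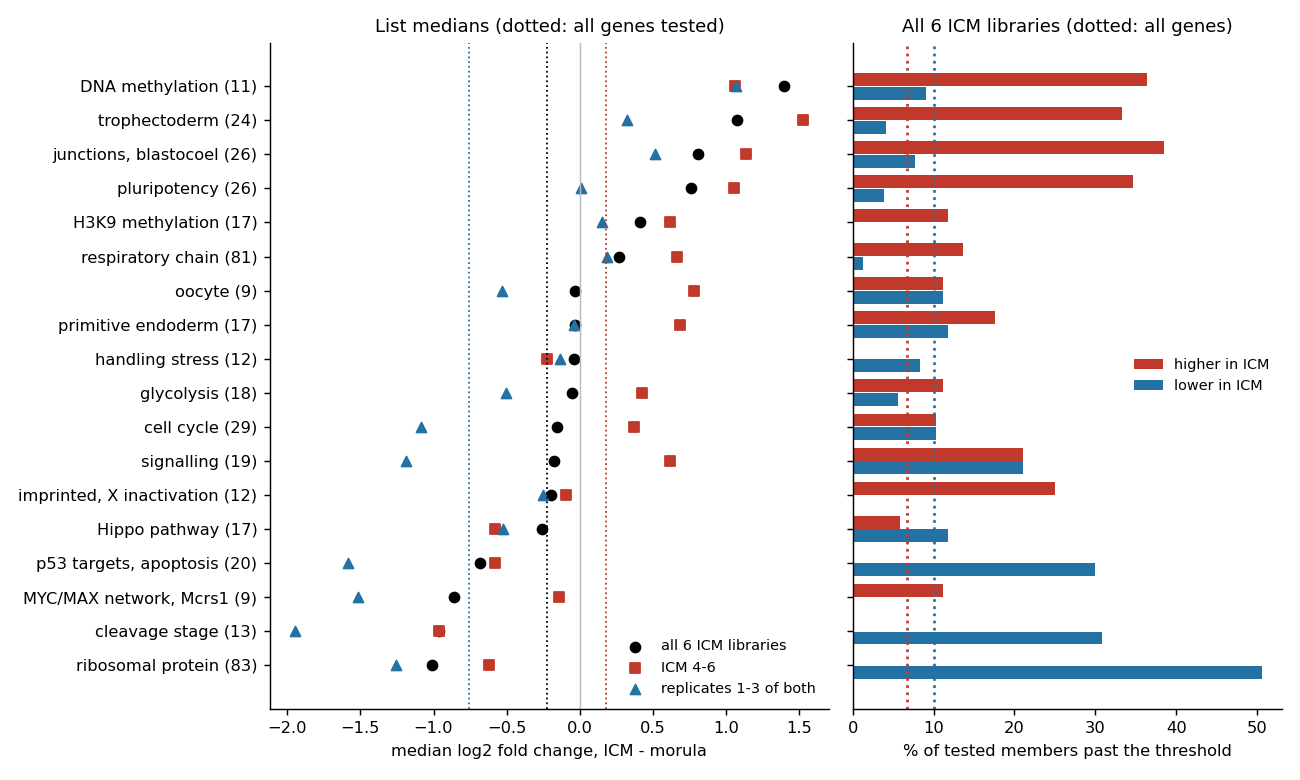
Left, median log2 fold change from SCNT morula to ICM of each gene list (number of members tested in brackets) with all 6 ICM libraries, with ICM replicates 4 to 6, and within replicates 1 to 3 of both groups, with dotted lines at the median of all genes in each fit. Right, the percentage of tested members higher or lower with all 6 ICM libraries, with dotted lines at 6.7% and 10.1% for all genes, where the pluripotency, trophectoderm, junction and DNA methylation lists show the highest shares of rises and the ribosomal protein list that of falls.

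Fewer genes differed between the ICM and the TE of SCNT blastocysts than between the ICM and the morula. Of 10428 genes tested over the 18 libraries, 44 were higher in the ICM (0.422%) and 52 higher in the TE (0.499%; limma with 3 groups in the fit). With ICM replicates 4 to 6 the numbers were 146 (1.4%) and 28 (0.269%). Among ICM replicates 4 to 6 and TE replicates 4 to 6 the correlation of log2 values across genes was 0.877 to 0.914, against 0.894 to 0.91 within ICM replicates 4 to 6. Genes are not independent replicates, so these values describe the libraries only. Spp1 was higher in every ICM library than in any TE library, at 104, 593 and 1179 TPM in the TE (log2 fold change 3.03, SE 0.41, adjusted p = 0.00147, limma, ICM minus TE). Upp1 was at 0.446, 37.1 and 139 TPM in the TE (log2 fold change 4.09, SE 0.90, adjusted p = 0.0313). On the pluripotency list 1 of the tested members differed, Utf1, at 26.6, 46.6 and 98.3 TPM in the TE (log2 fold change 2.13, SE 0.49, adjusted p = 0.0375, limma). Nanog was at 32.3, 91.8 and 172 TPM in the TE and did not pass (log2 fold change 1.47, SE 0.57, adjusted p = 0.245, limma), with TE replicate 4 at 172 TPM inside the ICM range. On the H3K9 list Kdm3a was higher in the ICM, with 20.6, 25.8 and 52.2 TPM there and 1.89, 6.18 and 15.5 in the TE (log2 fold change 2.05, SE 0.49, adjusted p = 0.0469, limma).

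Of the 6 named genes that were lower in the ICM than in the TE, Ndrg1 had an ICM library inside the TE range and the others had none. The genes were picked by that call, and some after their values had been seen, so this lack of overlap was largely set by the choice. The share of all genes without overlap between ICM and TE was not computed. Anxa3, an annexin, was at 0.333, 1.15, 0.247, 22.4, 63.4 and 1.56 TPM in ICM replicates 1 to 6 and 117, 165 and 225 in the TE (log2 fold change -5.05, SE 0.83, adjusted p = 0.00571, limma). Pkp2 was at 18.2, 24.1 and 40.8 TPM in the TE (log2 fold change -3.48, SE 0.49, adjusted p = 0.00147, limma), so it was lower in the ICM than in both the morula and the TE. Stx3, a syntaxin of the apical membrane, was at 0.522, 2.22 and 3.59 TPM in the ICM and 16.3, 23.2 and 41.2 in the TE. Lgals1 rose to the ICM and was higher again in the TE, at 769.5, 1384 and 2285 TPM (log2 fold change -2.32, SE 0.51, adjusted p = 0.0306, limma). Of the trophectoderm list the 1 member that was lower in the ICM was Ndrg1, with 0.0787, 14.3 and 74.9 TPM there and 65.9, 93.4 and 236 in the TE (log2 fold change -3.23, SE 0.77, adjusted p = 0.0445, limma). Krt8, Krt18, Gata3 and Cdx2 had ICM minus TE differences of -0.80, -1.48, -1.56 and -1.90 on the log2 scale with adjusted p = 0.481, 0.187, 0.105 and 0.289 (limma). Of the genes higher in the ICM, Spic, an ETS-family factor, was at 477, 785 and 1446 TPM in the ICM and 39.2, 158 and 552 in the TE (log2 fold change 2.36, SE 0.48, adjusted p = 0.0206, limma). Its median was 925 TPM in the 8C libraries and 148 in the morula. Jam2, a junctional adhesion molecule, and Tcl1, an AKT coactivator, differed by 2.57 and 3.19 on the log2 scale. Of the 13 named genes called between ICM and TE, 10 kept their call with ICM replicates 4 to 6. Lgals1, Ndrg1 and Kdm3a did not pass, with ICM minus TE differences of -2.03, -2.07 and 1.73 on the log2 scale. Another 8 named genes passed in this fit. Tdgf1 (log2 fold change 3.78), Otx2 (3.43), Pdgfra (3.25), Sox17 (3.04), Zfp57 (2.40), Gjb5 (2.36) and Fgf4 (2.13) were higher in the ICM. Phlda3 (-3.56), a gene of the p53 list, was lower in the ICM. Spic, Jam2, Tcl1, Anxa3, Stx3, Ndrg1, Kdm3a and Phlda3 were named here after their values had been seen.

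**Figure D5:**
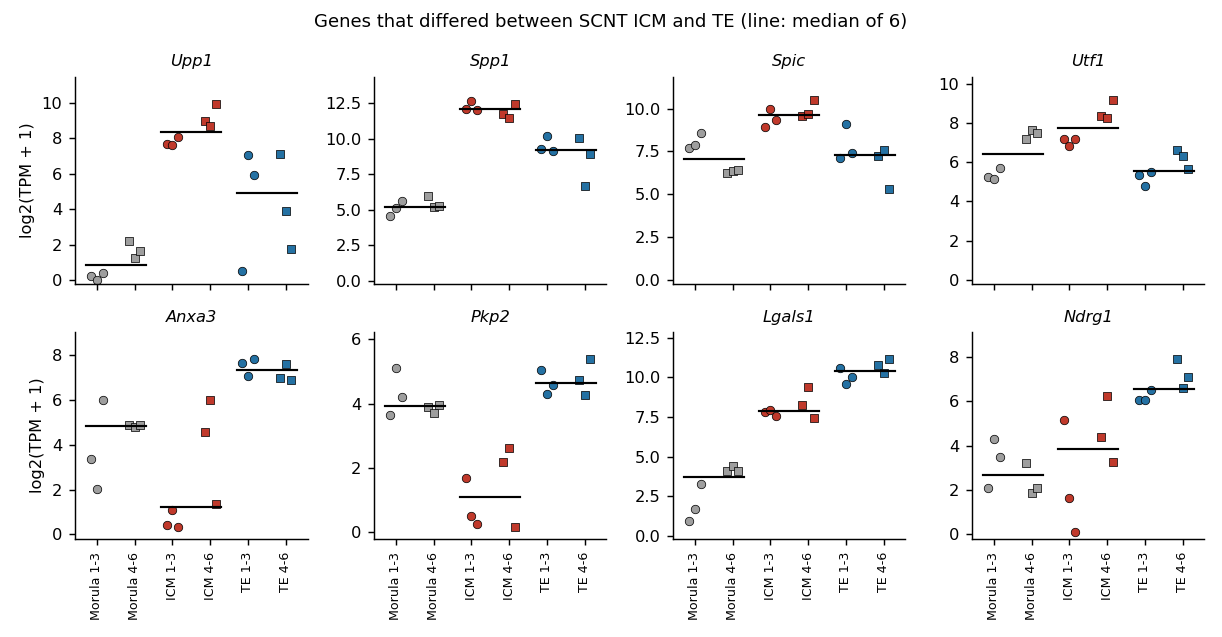
Levels of 8 genes that differed between SCNT ICM and TE, as log2(TPM + 1) on the vertical axis, with circles for replicates 1 to 3, squares for replicates 4 to 6 and a line at the median of 6 libraries. Upp1, Spp1, Spic and Utf1 were higher in the ICM, Anxa3, Pkp2, Lgals1 and Ndrg1 were higher in the TE, and Anxa3 and Ndrg1 vary widely among the ICM libraries.

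Values from the ICM of fertilized blastocysts come from the 2 control libraries of a morpholino experiment in the same series. They are labelled untreated although the protocol names a random control morpholino, and are given side by side with no test. By the methods fertilized embryos had C57BL/6j parents, while the SCNT oocytes were B6D2F1, so strain and origin cannot be told apart. Nanog was at 561 and 639 TPM in fertilized ICM replicates 1 and 2, above the SCNT ICM range of 154 to 274. Pou5f1 was at 153 and 229.6 TPM against 6.38 to 109, Tdgf1 at 631 and 989 against 0.469 to 455 and Fgf4 at 32 and 8.89 against 0.077 to 11.5. Stat3 was also above the SCNT ICM range (341 and 195 TPM against 3.81 to 98.6). So were Tet1 (34.2 and 56.2 against 4.09 to 19.2) and Nr5a2 (26.4 and 42.5 against 3.18 to 18.6). Tfcp2l1 (188 TPM) and Gdf3 (141 TPM) were above that range in fertilized replicate 2 only. Other pluripotency genes were not above it in both libraries. Zfp42 (338 and 442 TPM against 219 to 552) and Klf4 (15.8 and 18.7 against 12.8 to 95.3) lay inside it. Dppa5a lay below it (3530 and 4071 TPM against 9897 to 13309). Utf1 was inside it in fertilized replicate 1 and above it in replicate 2 (338 and 1201 TPM against 112 to 581). Sox2 was at 5.12 TPM in fertilized replicate 1, above the SCNT ICM libraries, and inside their range in replicate 2. Dppa3 was at 2252 and 3379.7 TPM, below the SCNT ICM range of 6854 to 10097. The fertilized controls were themselves uneven in TE markers, with Krt18 at 10274 and 108 TPM and Cdx2 at 57.7 and 0.222, and the SCNT ICM libraries lay between them for Krt18. Upp1 and Spp1, which rose most in the SCNT ICM, were at 438 and 466 and 1489.9 and 1974 TPM.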

How the data were processed

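RNA-seq libraries of 10 blastomeres each were analysed from 6 SCNT morula and 6 SCNT ICM samples, with 6 TE and 6 8C samples, 3 CC samples and 2 fertilized ICM controls for side values. The authors trimmed 150 bp paired reads with Cutadapt (1.16 in the processing notes), mapped them to mm10 with HISAT2 and made gene tables with StringTie. The notes also list Cufflinks and deepTools, and other versions are not given in the sources used here. The deposited TPM column was treated as a score, since the loci assembled from each library sum to 1000000 and the 24421 reference gene symbols come on top. The authors' FPKM column gave no result. Their deposited coverage column, a signal of mean read depth, was used only to estimate aligned sequence. Rows with a gene name were kept and the TPM of rows with the same name were summed. The depth in reads is unknown, so no counting interval is given.

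The study's methods name DESeq2, but counts are not used here, so log2(TPM + 1) was fitted with limma 3.58.1 (R 4.3.3; lmFit, then eBayes with a trend) over 10403 genes with a mean of at least 1 TPM in the 12 libraries. A gene was called at 2-fold or more where its p after Benjamini-Hochberg adjustment was under 0.05. ICM replicates 4 to 6 were fitted against all 6 morula libraries, and ICM against TE in a fit of the 3 groups. Groups came from the sample titles. For Smart-seq2 the methods speak of 3 replicates a stage, while their statistics section gives 2 to 6 RNA-seq experiments a group. A figure legend of the paper gives 6 biologically independent SCNT samples for expression. The labels give 6 replicates and do not say what sets replicates 1 to 3 and 4 to 6 apart. The fit was tested on simulated data of this comparison (10403 genes, 200 changed), in which 38% of changes of 1.5 and 73% of changes of 3 on the log2 scale were recovered, and 11 of 122 calls were false. Each gene was drawn on its own, without the differences that genes of a library share. The changed genes were taken from those well above 0 in the morula. These rates therefore need not hold for the real libraries.

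The genes and lists were chosen with earlier results of these data known. Named genes were 25 fixed markers, the 10 largest rises and 10 largest falls among genes called in both fits, with no overlap between the groups and a mean of at least 5 TPM (without predicted genes), and up to 3 rises and 3 falls of each of 19 lists. Another 33 genes were named after their values had been seen, among them Dppa5a, Tfcp2l1, Sall4, Gdf3, Prdm14, Tet2, Uhrf1, Eomes, Plac1, Fabp3, Cdkn1a, Bcl2l11, Bbc3, Ier2, Tdpoz2 and the junction genes without values by library. Some genes that passed the test are not reported here by name. Alternatives were another pseudocount, other filters, scalings, groups in the fit, library weights, row choices and replicate sets, and each library left out in turn.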

Additional observations from a re-analysis of the deposited data

Results flagged for a closer look

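Of 266 sets of 6 libraries (the named genes on the log2 scale and 3 library measures, in morula and ICM), 34 held a library whose gap to its nearest neighbour, divided by the range of the 6, exceeded the 95% critical value of Dixon, while chance alone puts about 1 in 20 sets past this value. ICM replicate 3 and morula replicate 2 each gave 6 of these, ICM replicate 5 and morula replicate 3 each gave 5, and morula replicates 4 to 6 gave none. Why these libraries stood apart was not tested.

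Among pluripotency genes, Pou5f1 was high in morula replicate 2 (351 TPM), Zfp42 low in morula replicate 3 (54.6 TPM), Fgf4 high in morula replicate 1 (3.43 TPM), Tdgf1 and Stat3 low in ICM replicate 3 (0.469 and 3.81 TPM), and Tfcp2l1 high (130 TPM) and Gdf3 low (0.373 TPM) in ICM replicate 2. Among lineage and junction genes, Gata4 was high in morula replicate 3 (4.37 TPM), Tspan8 low in ICM replicate 6 (88.9 TPM), Tead4 low in ICM replicate 2 (1.29 TPM), Plac1 and Dsg2 low in ICM replicate 3 (0.179 and 0.829 TPM) and Dsc2 high in morula replicate 3 (1.61 TPM). Among regulators, Mcrs1 was low in ICM replicate 3 (1.11 TPM), Mycn was high in morula replicate 1 (1.77 TPM) and low in ICM replicate 2 (0.379 TPM), Socs3 was high in ICM replicate 4 (5.25 TPM), Sfmbt2 in morula replicate 3 (6.53 TPM) and Kdm3a in morula replicate 2 (116 TPM).

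Among metabolic genes, Hk2 was low in morula replicate 2 and ICM replicate 6 (3.54 and 10.4 TPM), Pgam1 was high in morula replicate 2 (489 TPM) and low in ICM replicate 3 (38.6 TPM), and Sdhd was low in ICM replicate 1 (223 TPM). Of the genes that fell, Plk5 (2.09 TPM), Prl3b1 (4.52), Zp3 (2.44), Gadd45b (3.87) and Tdpoz2 (7.95) were highest in ICM replicate 5 and Sesn2 in ICM replicate 6 (8.2 TPM). In the morula, Alppl2 was high in replicate 2 (5700 TPM), Arg2 in replicate 3 (109 TPM) and Usp17lb low in replicate 2 (0.353 TPM). Ier2 was at 0.21 TPM in ICM replicate 1.

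The change from the morula differed between ICM and TE for 13 named genes by the limma test of ICM against TE, and 10 of them kept their call with ICM replicates 4 to 6 (not Lgals1, Ndrg1 and Kdm3a). The log2 fold change of ICM minus TE was above 0 for Upp1 (4.09), Tcl1 (3.19), Spp1 (3.03), Jam2 (2.57), Spic (2.36), Utf1 (2.13) and Kdm3a (2.05), and below 0 for Anxa3 (-5.05), Pkp2 (-3.48), Ndrg1 (-3.23), Stx3 (-3.13), Lrp2 (-2.39) and Lgals1 (-2.32).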

How the results depend on the processing

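The comparison of ICM with morula kept both directions under every alternative run, but its counts moved. All 9 SCNT groups in the fit gave 3023 genes (1134 higher and 1889 lower), library weights 1476 higher, ICM replicates 4 to 6 against all morula libraries 1530 higher, replicates 1 to 3 of both groups 315 higher, and replicates 4 to 6 of both groups 1613 higher and 689 lower. For ICM against TE, ICM replicates 4 to 6 gave 174 genes, and the replicate set (1 to 3 or 4 to 6) as a term, an alternative chosen after seeing the data, gave 167. The cause of these shifts was not tested. Leaving out 1 library gave 564 to 855 higher and 852 to 1181 lower genes, and for ICM replicates 4 to 6, 1152 to 1696 higher and 556 to 760 lower. Of 102 named genes called, 59 (replicates 1 to 3) to 102 kept their call under single alternatives, and none reversed. Most of these genes were named because of that call and the alternatives share libraries, so this was largely set by the choice. The share of all called genes that kept their call was not computed. Deviations of same-numbered morula and ICM libraries from their group means had r = -0.05 to 0.11. Morula replicate 1 had r = 0.11 to 0.14 with ICM replicates 1 to 3 and -0.20 to -0.17 with ICM replicates 4 to 6. The check mixes the replicate sets with the numbers, so it cannot decide whether the numbers pair samples. With the number as a replicate block 615 genes were higher and 869 lower, and 50 and 61 for ICM against TE. Quantile normalization moved the median log2 fold change of all genes from -0.22 to -0.01, and a pseudocount of 0.1 moved it to -0.51. The depth in reads is unknown, and values near 0 in ICM replicates 1 to 3 can be failed estimates.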
